A study of Mus musculus with 32 samples.

Results

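The 10 genes described here, Fos, Fosb, Jun, Junb, Jund, Egr1, Ier2, Atf3, Nr4a1 and Dusp1, are immediate early genes, measured here cell by cell in the median eminence (ME) of the mouse, the part of the hypothalamus that borders the third ventricle and the pituitary. They were chosen by name, and all 10 were among the 27998 genes of the count matrix. The ME came from male C57B/L6 mice aged 40 to 47 days. All of them had gone without food overnight for 16 h, and 1 of the 2 groups was then given food again for 1 h. Tissue of 5 mice was pooled for each condition, digested with papain at 37 °C for 15 to 20 min, sorted for living nucleated cells, and divided over 2 droplet libraries per condition, which GEO lists as 32 sample records. Each cell barcode ended in a number from 1 to 4 that nothing in the labels or methods tied to a library or a condition. No condition was therefore given to any cell, all cells were taken as 1 sample, and no test between fasted and refed mice was possible.

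Immediate early genes are transcribed within minutes of a stimulus from factors that the cell already holds, and their mRNAs are short-lived. The Fos and Jun proteins pair to form the transcription factor AP-1, Egr1 and Nr4a1 are DNA-binding factors in their own right, and Dusp1 is a phosphatase that switches off the MAP kinases that induce the set. In the brain these genes are used as marks of recently active neurons, but microglia, vascular cells and endocrine cells induce them too. Enzymatic dissociation at warm temperature is a known inducer of the same genes, so induction in the mouse and induction during preparation cannot be told apart here.

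The stretch just before the start site of these genes is known to bind the factors CREB and SRF, and the promoters of 4 members are shown because these members differ below in which cell types they were high in. RefSeq sequences on GRCm38.p6, read 5′ to 3′ on the strand of the gene, covered 8 of the 10 members, and Egr1 and Ier2 had no entry. They hold the 250 bases before the start site of the RefSeq entry. Capitals mark TGACG, the core of the cAMP response element, on either strand. The stretches lie at chr12:85473640-85473889 (plus strand) for Fos, chr8:84978749-84978998 (minus) for Junb, chr15:101266596-101266845 (plus) for Nr4a1 and chr17:26508473-26508722 (minus) for Dusp1.
Fos: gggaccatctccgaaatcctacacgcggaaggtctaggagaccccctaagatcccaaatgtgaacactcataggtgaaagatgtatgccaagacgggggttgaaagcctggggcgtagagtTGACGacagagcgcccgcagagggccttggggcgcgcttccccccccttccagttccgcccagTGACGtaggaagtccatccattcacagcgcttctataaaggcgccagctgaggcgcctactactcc
Junb: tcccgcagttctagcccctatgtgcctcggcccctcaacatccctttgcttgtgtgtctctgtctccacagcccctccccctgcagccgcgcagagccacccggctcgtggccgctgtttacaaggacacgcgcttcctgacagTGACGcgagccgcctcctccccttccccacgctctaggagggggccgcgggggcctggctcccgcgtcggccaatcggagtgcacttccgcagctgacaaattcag
Nr4a1: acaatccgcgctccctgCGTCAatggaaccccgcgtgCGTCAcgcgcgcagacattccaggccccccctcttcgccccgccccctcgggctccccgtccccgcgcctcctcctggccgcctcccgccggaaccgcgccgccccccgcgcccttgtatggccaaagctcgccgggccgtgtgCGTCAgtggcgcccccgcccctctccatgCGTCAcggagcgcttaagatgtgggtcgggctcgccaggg
Dusp1: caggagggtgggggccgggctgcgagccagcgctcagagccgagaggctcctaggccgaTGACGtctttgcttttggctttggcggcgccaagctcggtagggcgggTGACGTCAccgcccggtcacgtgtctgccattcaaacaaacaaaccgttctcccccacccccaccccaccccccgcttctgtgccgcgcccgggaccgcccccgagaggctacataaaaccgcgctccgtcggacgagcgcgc
TGACG was found in 6 of the 8 members with a sequence, against 19.8% of 27025 genes. Nr4a1 held 4 matches, Dusp1 held 3 and Fos held 2, while the windows of Jun and Jund held none. The Dusp1 matches at -143 and -140 are the 2 strands of 1 palindrome, so its sequence shows 2 capital stretches. The Jund window (chr8:70697489-70697738, plus strand) does not adjoin the annotated gene, which starts at 70698949. Its lack of a match therefore cannot be read as a trait of the Jund promoter. The windows of Nr4a1, Dusp1 and Atf3 do not adjoin the annotated start either and lie inside the gene. Those starts are at 101254269 for Nr4a1 (plus), 26562128 for Dusp1 (minus) and 191218039 for Atf3 (minus). Matches in these windows therefore cannot be read as traits of a promoter at the annotated start. The complete palindrome TGACGTCA, which contains TGACG, was found in 1 member, Dusp1, and in 1.77% of genes. TATAAA was found in Fos and in 14.3% of genes. Neither the AP-1 site TGANTCA (7.82% of genes) nor the CArG box that SRF binds (1.62%) was found in a member within these windows. Matches of letters are given as a description and not as binding sites.

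The matrix held 29288898 UMIs (unique molecular identifiers, each standing for 1 captured transcript) in 5982 cells. Of the cells, 1642, 1493, 1359 and 1488 carried the barcode numbers 1, 2, 3 and 4, with median depths of 3876, 3518, 4057 and 3892 UMIs, and 21 barcodes occurred with 2 numbers. Clustering without the 10 genes and other inducible genes gave 25 clusters, of which markers named 13 cell types with 5802 cells. Another 177 cells in 2 clusters led by Mef2c and Ccl5 stayed unnamed, and 3 cells rich in haemoglobin were set apart. Levels are UMIs summed over the cells of a type per 1000000 UMIs (CPM). Since the libraries capture the 3′ end, a long mRNA is not counted more often than a short one for its length. Other differences in capture between genes were not examined, so levels of different genes are set side by side only as counts. The 95% intervals in square brackets (exact Poisson for CPM, exact Clopper-Pearson for shares of cells) cover counting error only. A few cells held many of the UMIs, so a new set of cells would vary more than these intervals.

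Together the 10 genes gave 38512 UMIs, 0.131% of all. Jund (chr8:70698949-70700616), the Jun family member least tied to stimulation, was the most widespread, with 16272 UMIs and at least 1 in 71.5% of cells. Jun (chr4:95049034-95052222) followed with 6437 UMIs in 36.7% of cells. Fos (chr12:85473890-85477273) had 4950 UMIs in 14.3%, Junb (chr8:84974484-84978718) 4619 in 16.3% and Ier2 (chr8:84661331-84662852) 2893 in 14.3%. Dusp1 (chr17:26505590-26562128) had 1579 UMIs in 12.3% of cells and Egr1 823 in 7.36%. Fosb (chr7:19302696-19310051), Atf3 (chr1:191170296-191218039) and Nr4a1 (chr15:101254269-101274795) were rare, with 272, 312 and 355 UMIs in 2.42%, 2.06% and 4.28% of cells. Except for Jund and Jun, each gene was thus seen in fewer than 1 cell in 6.

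**Figure D1:**
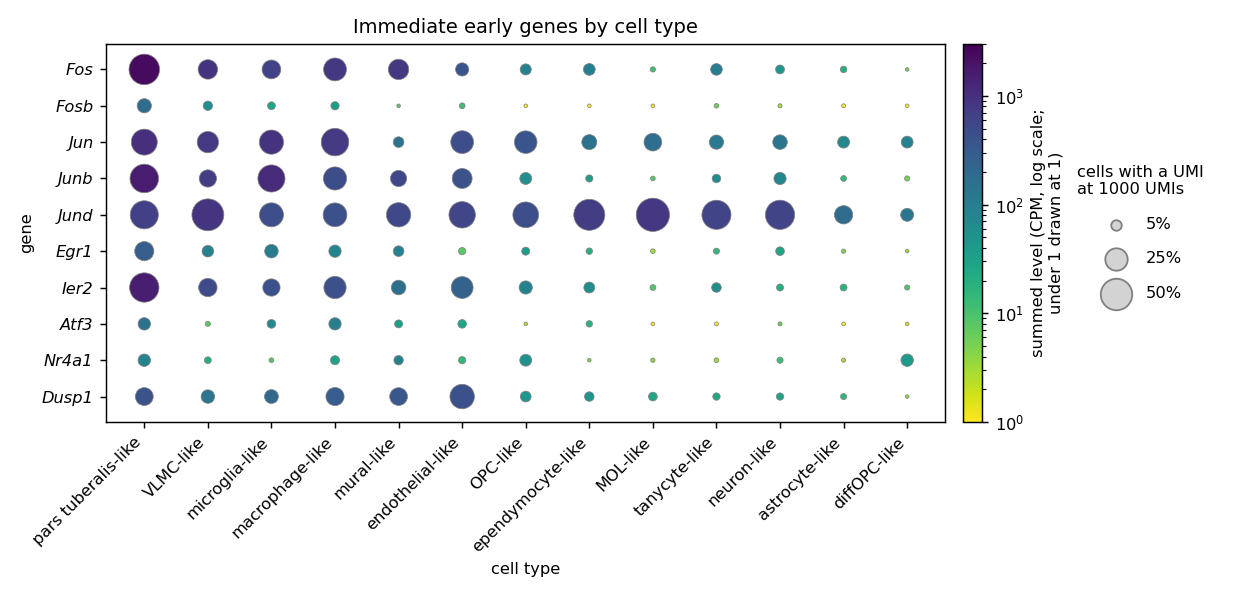
Colour gives the level of each of the 10 genes (CPM, log scale) in 13 cell types, ordered by their summed level, and the size of the circle the share of cells with at least 1 UMI after each cell was thinned to 1000 UMIs. The pars tuberalis-like column is darkest for 7 of the genes, and Jund has the smallest span across the types, 6.72-fold.

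Fos, the partner of the Jun proteins in AP-1, was highest in cells like those of the pars tuberalis (PT), the endocrine sheath of the pituitary stalk next to the ME, at 2378 CPM [2244 to 2519]. Next were cells like those of the vessel walls and meninges (vascular and leptomeningeal cells, VLMC), at 942 CPM [880 to 1007]. The level was 849 CPM in mural-like, 815 in macrophage-like, 628 in microglia-like and 366 in endothelial-like cells. It was far lower in cells of neural origin, at 107 CPM in tanycyte-like, 102 in ependymocyte-like, 95.3 in oligodendrocyte precursor-like (OPC-like), 46.0 in neuron-like and 20.9 in astrocyte-like cells. The lowest were cells like mature oligodendrocytes (MOL-like) at 11.2 CPM and differentiating OPC-like (diffOPC-like) cells at 5.47 CPM [2.20 to 11.3], 435 times below the PT-like cells. At an equal depth of 1000 UMIs, 47% of PT-like cells held a Fos UMI, against 0.763% of MOL-like cells and 0 of 138 diffOPC-like cells. Fosb, a close relative, followed the same order at the top, with 185 CPM [149 to 228] in PT-like and 58.3 CPM [43.6 to 76.2] in VLMC-like cells. In MOL-like cells Fosb was at 2 UMIs in 655 cells, under the 3 counts needed for a ratio.

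Among the Jun genes, Junb and Jun were both highest in PT-like cells, but the microglia-like cells came next and not the VLMC-like cells. Junb was at 1626 CPM [1516 to 1743] in PT-like, 1148 [1092 to 1207] in microglia-like and 712 in VLMC-like cells, and at 5.47 CPM in diffOPC-like cells, a 298-fold span. Jun spanned 14.7-fold, from 1021 CPM [934 to 1115] in PT-like cells to 69.3 [61.2 to 78.1] in astrocyte-like cells, and its interval in PT-like cells overlapped that of microglia-like cells at 930 CPM [880 to 983]. Mural-like cells stood out by a low Jun level, 140 CPM, beside 849 CPM of Fos and 553 CPM of Junb. Jund behaved differently from the rest. Its highest level, 861 CPM [802 to 923] in VLMC-like cells, was not distinct from MOL-like cells at 835 CPM [808 to 862], where Fos and Junb were scarce, and its span from the highest to the lowest type was 6.72-fold.

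The zinc-finger factor Egr1 was at 283 CPM [238 to 335] in PT-like cells and at 106 CPM [89.5 to 125] in microglia-like cells, with 95.6 in VLMC-like, 92.1 in mural-like and 78.9 in macrophage-like cells. Endothelial-like cells, with 366 CPM of Fos, had 2 Egr1 UMIs in 97 cells, or 7.79 CPM [0.943 to 28.1]. Neuron-like cells were at 28.4 CPM, the level of the median cell type. With a median of 13043 UMIs per cell, they made up 8.91% of the cells and held 22.9% of the UMIs of all genes. Their share of all Egr1 UMIs was 23.2%. Atf3, a stress-inducible factor that pairs with Jun, was at 145 CPM [113 to 183] in PT-like, 96.7 [71.5 to 128] in macrophage-like and 68.5 in microglia-like cells. VLMC-like cells, second for Fos, had 7.70 CPM of Atf3. The intervals of PT-like and macrophage-like cells overlapped.

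Nr4a1, an orphan nuclear receptor, had the most unusual order. Its highest levels, 92.1 CPM [58.4 to 138] in mural-like and 77.4 [54.8 to 106] in PT-like cells, overlapped each other, and next were OPC-like cells at 49.7 CPM [38.0 to 63.8] and diffOPC-like cells at 38.3 [28.3 to 50.6]. The diffOPC-like cells were lowest of all types for 5 of the other members, yet 25.4% of them held an Nr4a1 UMI, and at 1000 UMIs the share was 7.25% [3.53 to 12.9], beside 7.23% of PT-like and 0.214% of astrocyte-like cells. In microglia-like cells, high for most members, Nr4a1 was at 8.84 CPM.

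Ier2, a nuclear regulator encoded by a single exon, resembled Fos, with 1514 CPM [1407 to 1627] in PT-like and 495 [450 to 543] in VLMC-like cells and the lowest level, 8.77 CPM [6.23 to 12], in MOL-like cells. Dusp1 was led by endothelial-like cells at 424 CPM [348 to 512], within counting error of PT-like cells at 383 [330 to 442] and mural-like cells at 340. At 1000 UMIs, 29.9% of endothelial-like cells held a Dusp1 UMI and 15.7% of PT-like cells. The 3 genes led by another type were Jund, Nr4a1 and Dusp1, and only for Jund did the interval of the leading type lie clear of that of PT-like cells, at 664 CPM.

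To set these spans against other genes, the highest type was divided by the median type with 10 CPM added to both, for genes with at least 500 UMIs. Of the 7 members that passed this filter, 6 were at least 4-fold above the median type, against 26.9% of 7762 genes. The ratios were 20.4 for Fos, 19.4 for Junb, 16.2 for Ier2, 7.64 for Dusp1, 7.63 for Egr1 and 5.63 for Jun, and Jund was at 1.53. A gene of low overall level passes the filter through the type in which it is high, so the count describes the members and is no test of them. The 3 members below the filter were at 12.4 (Fosb), 8.74 (Atf3) and 3.99 (Nr4a1).

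Summed over the 10 genes, PT-like cells were at 8279 CPM [8026 to 8537]. VLMC-like cells at 4119 [3989 to 4254] and microglia-like cells at 3990 [3884 to 4098] overlapped and were followed by macrophage-like cells at 3420. Mural-like cells at 2800 and endothelial-like cells at 2530 overlapped as well. There was then a drop to OPC-like, ependymocyte-like and MOL-like cells (1176, 1153 and 1070 CPM, each overlapping the next), then to tanycyte-like (1004) and neuron-like cells (958), which overlapped, and a last step to astrocyte-like (329) and diffOPC-like cells (285), which also overlapped. The ratio of the highest to the lowest type was 29.0 [25.4 to 33.3]. PT-like cells had the highest sum in each of the 4 barcode numbers, but the second place was held by microglia-like cells in numbers 1 and 2 and by VLMC-like cells in numbers 3 and 4. In the MOL-like, neuron-like, tanycyte-like, ependymocyte-like and astrocyte-like cells Jund made up most of the sum. Without it they were at 236, 353, 399, 433 and 147 CPM, while PT-like cells kept 7614 CPM.

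**Figure D2:**
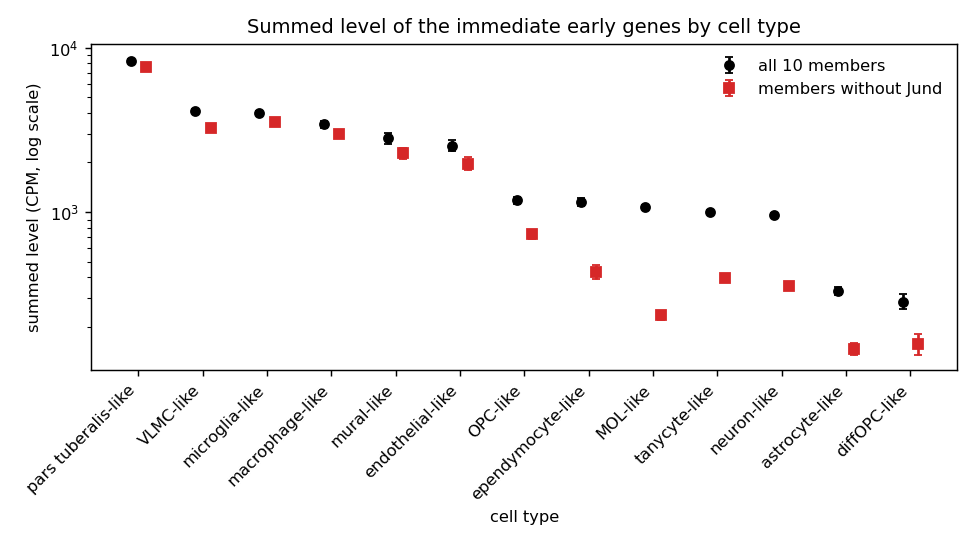
Summed level (CPM, log scale) of the 10 genes and of the 9 without Jund in 13 cell types, with 95% Poisson intervals. PT-like cells stand at 8279 CPM, and 5 vascular or immune types between 2530 and 4119 CPM lie above all types of neural origin.

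The levels came from a minority of cells in most types. In microglia-like cells the tenth of cells with most Fos held 81.5% of the Fos UMIs, in VLMC-like cells 83.5% and in tanycyte-like cells 90.9%, but in PT-like cells 41.5%. For Jund the same share was 48.4%, 37.9%, 27.5% and 39.0%. After thinning to 1000 UMIs, 43.4% [32.5 to 54.7] of PT-like cells held UMIs of at least 3 of the 10 genes, and 30.1% held at least 5. The share with at least 3 was 28.9% in macrophage-like, 19.6% in endothelial-like, 18.3% in microglia-like, 17% in VLMC-like and 10.3% in mural-like cells. It fell to 5.92% in OPC-like, 4.46% in ependymocyte-like, 3.56% in neuron-like and 3.26% in tanycyte-like cells, to 0.305% in MOL-like and 0.142% in astrocyte-like cells. In diffOPC-like cells it was 0 of 138, which allows up to 2.64%. PT-like cells were split: their median was 2 genes, but 34.9% had none, and the share with none was similar in microglia-like (39.1%) and VLMC-like cells (34.3%). The median of 2 in PT-like cells became 1 without barcode number 4, 4 with the inducible genes kept for clustering, and 5 in the cells that kept the name at a finer clustering.

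**Figure D3:**
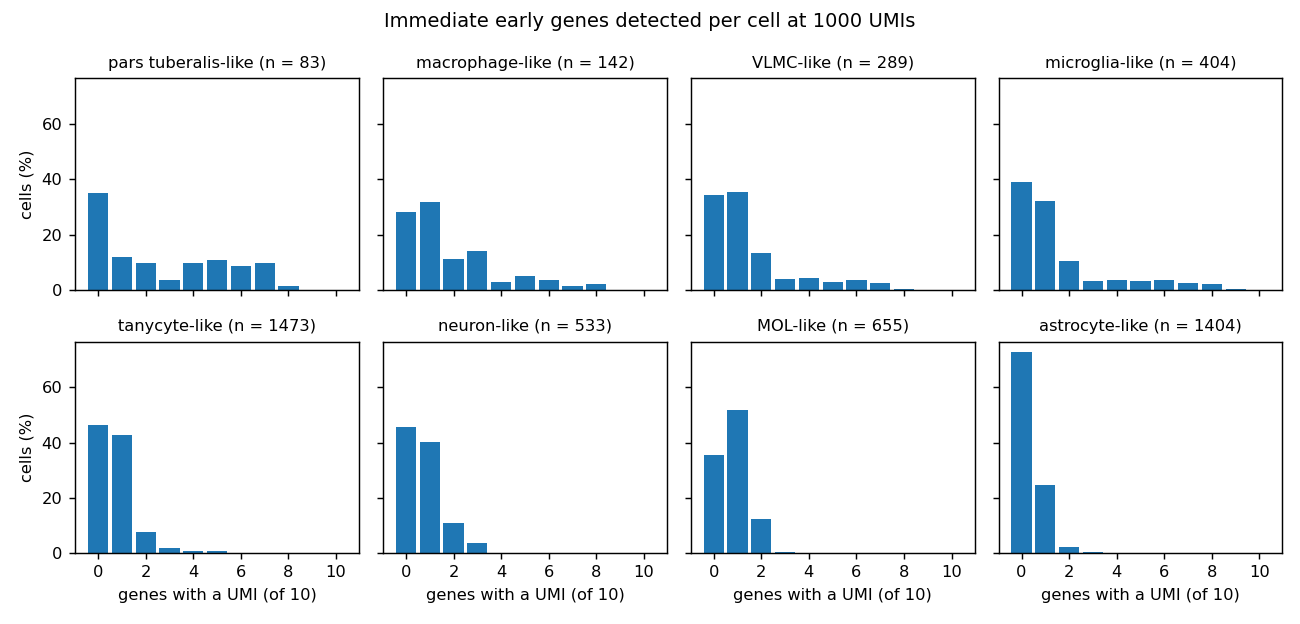
Share of cells (%) by the number of the 10 genes with at least 1 UMI at 1000 UMIs per cell, in 8 cell types. PT-like cells spread from 0 to 8 genes, while most astrocyte-like (73.0%) cells had none and 51.9% of MOL-like cells had 1.

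In 4 of 8 cell types examined, cells high in one of the genes tended to be high in others. Over single cells, the median Pearson correlation of log-scaled counts between pairs of members without Jund was 0.64 in the 404 microglia-like, 0.61 in the 83 PT-like, 0.60 in the 289 VLMC-like and 0.42 in the 142 macrophage-like cells. It was 0.21 in tanycyte-like and 0.09 in neuron-like cells, and within 0.01 of 0 in astrocyte-like and MOL-like cells. The closest pairs in PT-like cells were Junb with Ier2 (r = 0.87) and Fos with Junb (0.86), in VLMC-like cells Fos with Junb (0.84), and in microglia-like cells Fos with Ier2 (0.79). In neuron-like cells the closest pair was Junb with Egr1 (0.48). Cells of 1 type share libraries and differ in depth, and these correlations describe them without a test. In PT-like cells the summed level without Jund also moved with the summed heat shock genes (r = 0.60), with the depth of the cell (0.55) and, inversely, with the mitochondrial share (-0.51). In microglia-like cells the same values were 0.08, 0.21 and 0.15. What part these play in the levels was not tested.

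At a finer clustering (resolution 2 in place of 1) the 83 PT-like cells came apart into 32 cells led by Cga, the common subunit of the glycoprotein hormones, and 51 cells led by Pomc, the precursor of corticotropin and melanotropin. The first kept the PT-like name, with a marker score of 1. The Pomc-led cells, most of the PT-like cells, scored 0.26, below the 0.3 required, and were unnamed at this resolution, with Cga as their second leading gene. The Cga-led cells were at 10303 CPM [9926 to 10691], and 78.1% [60.0 to 90.7] of them held at least 3 of the genes at 1000 UMIs. The Pomc-led cells were at 5741 CPM [5427 to 6069] and 21.6% [11.3 to 35.3]. Fos was at 3092 and 1484 CPM, Junb at 1997 and 1162, and Egr1 at 377 and 165 in the 2 groups. Their median depths were 8128 and 3698 UMIs. The heat shock genes were at 5925 and 5236 CPM. Even the lower group exceeded the VLMC-like sum of 4119 CPM. Its median at 1000 UMIs, however, was 0 genes per cell, against 5 in the Cga-led and 1 in VLMC-like cells. Its share of cells with at least 3 genes overlapped that of VLMC-like cells, 17% [12.8 to 21.8].

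Tanycyte-like cells, the ependymoglia that line the ventricle and send processes into the ME, formed 4 clusters that were far from uniform. The 89 cells led by Scn7a and Col25a1 were at 2191 CPM [2062 to 2327] for the sum, the 575 cells led by 6330403K07Rik, Crym and Rax at 720 [684 to 757], and the 2 others at 969 and 1069. Fos was at 404 CPM [350 to 465] in the Scn7a-led cluster and at 35.7 [28.1 to 44.7] in the cluster of 575 cells. Junb was at 310 and 24.4 CPM, and Ier2 at 261 and 34.3. The summed level over all tanycyte-like cells, 1004 CPM, became 983 CPM without the cluster led by Gfap, a gene shared with astrocytes.

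The 3 neuron-like clusters were close in sum and differed in single genes. The 381 cells led by Sst were at 891 CPM [865 to 917], the 90 cells led by Scg2, Vip and Avp at 1114 [1033 to 1200], and the 62 cells led by Agrp and Npy, the hunger-driving neurons of the arcuate nucleus, at 1175 [1112 to 1242]. Fos was at 36.2, 68.4 and 78.2 CPM and Jun at 125, 100 and 193 CPM. Egr1 went the other way, at 34.0 CPM [29.1 to 39.5] in the Sst cluster, 17.5 [10.5 to 27.3] in the Agrp cluster and 2 UMIs in the Vip cluster. Ier2 was highest in the Vip cluster, at 66.8 CPM [48.1 to 90.2], and at 15.8 and 11 CPM in the others. Among the VLMC-like cells, 21 cells led by Mgp were at 5757 CPM and the remaining 268 at 3923.

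Microglia and macrophages secrete the chemokines Ccl3 and Ccl4 when activated. At 1000 UMIs, 366 of the 404 microglia-like cells held no UMI of either, and their summed level of the 10 genes was 3148 CPM [2968 to 3335] with a median of 1 gene per cell. The 31 cells with 1 to 4 chemokine UMIs were at 7548 CPM [6612 to 8580] and a median of 3 genes, and the 7 cells with 5 or more at 19571 CPM [16432 to 23137] and 4 genes. In macrophage-like cells the same classes of 119, 17 and 6 cells were at 2521, 9765 and 13833 CPM. The heat shock genes were at 2516, 2871 and 3857 CPM over the 3 classes of microglia-like cells, and the median depth before thinning was 3024, 3816 and 3456 UMIs. Cells with chemokine UMIs thus had higher levels of the genes in both types.

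The lists of related genes below were drawn up with earlier results of these data known and are described by counts. Among other inducible transcription factors, 5 of 14 passed 500 UMIs and 3 of these were at least 4-fold above the median type, as were 26.9% of all genes tested: Klf2 and Klf4, factors of the vessel lining, at 2277 and 261 CPM in endothelial-like cells, and Cebpb at 519 CPM in VLMC-like cells. Klf9 reached 495 CPM in VLMC-like cells, 3.45-fold. Egr2 and Egr4, relatives of Egr1 below the filter, were at 171 and 190 CPM in PT-like cells. Of 29 inducible feedback and signalling genes, 20 passed and 14 were at least 4-fold, again against 26.9%. Sgk1, a kinase, was at 1103 CPM in MOL-like cells, where all members but Jund and Jun were low, and Btg2, an inhibitor of division, was at 1353 CPM in PT-like cells. Btg1 (726 CPM in PT-like), Rhob (560 in microglia-like) and Zfp36l1 (465 in VLMC-like) were among the highest and stayed below 4-fold. Of 10 genes named for neuronal activity, 4 passed and 3 were at least 4-fold, against the same 26.9%. These were Scg2, at 4048 CPM in PT-like and 1804 in neuron-like cells, Vgf, at 325 CPM in neuron-like cells, and Rgs2, at 519 CPM in microglia-like cells. Arc, a synaptic gene below the filter, was at 194 CPM in PT-like cells.

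The other AP-1 factors and the upstream genes are set against the same background of 26.9%. Of 10 other AP-1 and ATF factors, 2 passed (Atf2 and Atf4) and 0 were at least 4-fold, with ratios of 2.03 and 1.51. Of 19 kinases and factors upstream of the genes, 10 passed and 2 were at least 4-fold, a share near that of all genes. The kinase gene Mapk3 had a ratio of 3.08, Map2k2 of 1.33 and Map2k1 of 4.11, with its highest level, 307 CPM, in neuron-like cells. The median ratio was 1.74 for the upstream list, 7.64 for the 7 members and 2.13 for all genes tested. The 4 haemoglobin genes, taken as a sign of free RNA, had a median ratio of 1.19 and 0 of 4 were at least 4-fold. Their highest level in any named type was 14.7 CPM (Hbb-bs in microglia-like cells). With 10 CPM added to both levels, none of them could reach 4-fold, so this count cannot be set against that of the members. The 6 oligodendrocyte genes and the 7 neuropeptide genes that passed were all at least 4-fold, led by MOL-like and neuron-like cells for all but 2 of them.

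By barcode number, the summed level, averaged over cell types with the same weights in each number, was 1283, 1371, 1351 and 1497 CPM for numbers 1 to 4. The ratio of the highest to the lowest was 1.17 [1.13 to 1.2], and 1.08 when cells were pooled without weights. With 10 CPM added to both levels, 0 of the 7 members that passed 500 UMIs reached 1.5-fold, against 1.06% of genes. Fos came nearest, at 161 CPM in number 1 and 243 in number 4, which is 1.48-fold with the added 10 CPM and 1.51-fold without. It therefore lay at the threshold, and passed it when number 2 was left out, with 1 CPM added, with the inducible genes kept for clustering, at resolution 0.5, over the UMIs left after the members, heat shock, mitochondrial and haemoglobin genes, and without shared barcodes. Under K-means clustering, which left 4 of 9 clusters unnamed, 6 members passed and the ratio of the sums was 2.01. Single cell types differed between the numbers in opposite directions. What the numbers stand for is unknown, and a library, a condition and an order of preparation cannot be told apart. The orders of numbers given next were picked out after the values were seen.

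In VLMC-like cells (66, 75, 82 and 66 cells in numbers 1 to 4) the sum was 1476 CPM [1316 to 1651], 2569 [2360 to 2791], 5428 [5154 to 5713] and 6615 [6274 to 6969]. Numbers 3 and 4 both lay above 1 and 2, and the ratio of highest to lowest was 4.48. Without number 1 it was 2.57. Fos was at 202, 450, 1465 and 1502 CPM, Junb at 120, 418, 925 and 1319, and Ier2 at 115, 290, 651 and 875. Of the 8 members with at least 50 UMIs in these cells, 7 were at least 1.5-fold between the highest and the lowest number, again with 10 CPM added, against 46.9% of 3004 genes. Fosb, at 9.62, 55.1, 51.8 and 117 CPM, was the 1 of the 8 that did not have both numbers 3 and 4 above 1 and 2. The count for that order was 7 of 8, against 23.8% of genes. Jund had the order with a small span, 726, 726, 903 and 1076 CPM. The share of cells with at least 3 of the genes at 1000 UMIs was 7.58%, 9.33%, 22.0% and 28.8%. Without the cell with most UMIs of the genes in each number, the sums were 1308, 2138, 4903 and 5828 CPM.

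Microglia-like cells (123, 140, 60 and 81 cells) had the opposite order. Their sum was 4344 CPM [4150 to 4545], 5126 [4923 to 5334], 2040 [1846 to 2249] and 2809 [2607 to 3022], with numbers 1 and 2 both above 3 and 4 and a ratio of 2.51. Ier2 was at 482, 589, 137 and 168 CPM, Junb at 1290, 1517, 532 and 707, Jun at 1082, 1121, 471 and 684, and Fos at 572, 849, 354 and 527. All 8 members with at least 50 UMIs had this order (8 of 8, against 16.3% of 3757 genes), and 7 of 8 were at least 1.5-fold, against 43.5% of genes. For Egr1 the gap was small, with 108 CPM in number 1 and 102 in number 4. The share of cells with at least 3 of the genes was 20.3%, 23.6%, 10.0% and 12.3%, with overlapping intervals, and the share with a Ccl3 or Ccl4 UMI was 9.76%, 12.1%, 6.67% and 6.17%, also overlapping. In number 3, 131 of the 403 UMIs came from 1 cell. Without the top cell of each number the sums were 4087, 4916, 1404 and 2437 CPM.

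**Figure D4:**
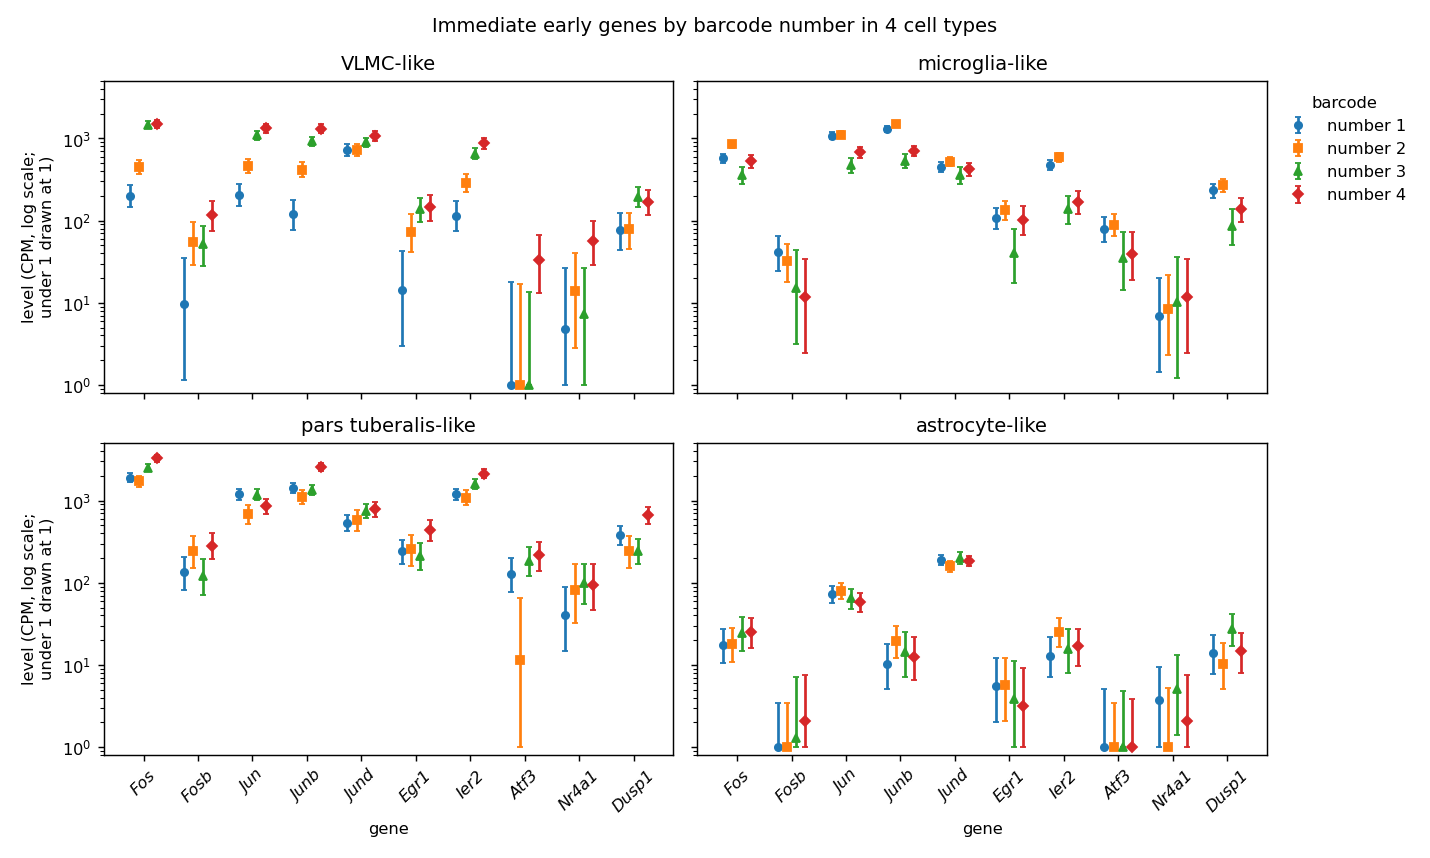
Level of each of the 10 genes (CPM, log scale) by barcode number in 4 cell types, with 95% Poisson intervals. In VLMC-like cells numbers 3 and 4 lie above 1 and 2 for 7 of 8 members with at least 50 UMIs, in microglia-like cells numbers 1 and 2 lie above 3 and 4 for 8 of 8, and in astrocyte-like cells the intervals overlap for most genes.

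In PT-like cells (23, 12, 28 and 20 cells) the sum was 7197, 6017, 8275 and 11346 CPM, and 8 of the 9 members with at least 50 UMIs were at least 1.5-fold, against 61.2% of 1532 genes, a high background that comes with so few cells. Of the 1156 UMIs in number 3, 338 came from 1 cell. In this number the mitochondrial genes were also at their highest, 100596 CPM against 50963 to 64567 in the others. Mural-like cells (18 to 21 cells per number) were at 1316, 961, 4971 and 3267 CPM and endothelial-like cells (17 to 32) at 1713, 1810, 3206 and 3786. In both, as in VLMC-like cells, numbers 3 and 4 lay above 1 and 2. Of the members with at least 50 UMIs, 3 of 4 had that order in mural-like cells, against 27.8% of 752 genes. The count in endothelial-like cells was 5 of 6, against 19.7% of 917 genes. In mural-like cells of number 3, 102 of 340 UMIs came from 1 cell. Macrophage-like cells were at 3633, 3612, 3533 and 2371 CPM, so the other immune type had 3 numbers alike.

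Tanycyte-like cells, the most numerous, were at 1039, 1048, 860 and 1034 CPM, and 3 of the 7 members with at least 50 UMIs were at least 1.5-fold, against 8.79% of 9644 genes. These were Junb at 79.5, 93.0, 34.8 and 49.4 CPM, Fos at 130, 113, 63.3 and 108, and Dusp1 at 35.1, 21.0, 11.1 and 27.0. Astrocyte-like cells were nearly level at 328, 320, 357 and 320 CPM. In neuron-like cells Jun was at 57.5, 105, 166 and 166 CPM, and 4 of 8 members (Jun, Egr1, Ier2 and Nr4a1) had both numbers 3 and 4 above 1 and 2, against 26.4% of 9723 genes. Fos was at 46.5, 40.1, 39.7 and 55.1 CPM. In MOL-like cells Dusp1 was at 48.8, 32.4, 14.4 and 14.6 CPM. Of the 4 members tested there, Dusp1 and Jund had both numbers 1 and 2 above 3 and 4 (2 of 4, against 21.7% of 6971 genes), and Jun had 3 and 4 above 1 and 2 (1 of 4, against 18.0%), as in neuron-like cells.

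The 11 heat shock genes, which dissociation and warmth are also known to induce, were higher in numbers 3 and 4 in each of the 13 cell types. In VLMC-like cells their sum was 2241, 2109, 4662 and 4309 CPM, with 8 of the 9 tested having both numbers 3 and 4 above 1 and 2, against 23.8% of genes. In microglia-like cells it was 2109, 1947, 3898 and 3477 CPM, with 6 of 7 in that order, against 26.1%. The heat shock genes and the immediate early genes therefore moved the same way between the numbers in VLMC-like cells and opposite ways in microglia-like cells. The mitochondrial genes differed less, at 39922 to 44815 CPM in VLMC-like and 15714 to 20447 in microglia-like cells, and median depth was 2727 to 2967 and 2925 to 3222 UMIs. The part of handling in these differences was not tested.

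**Figure D5:**
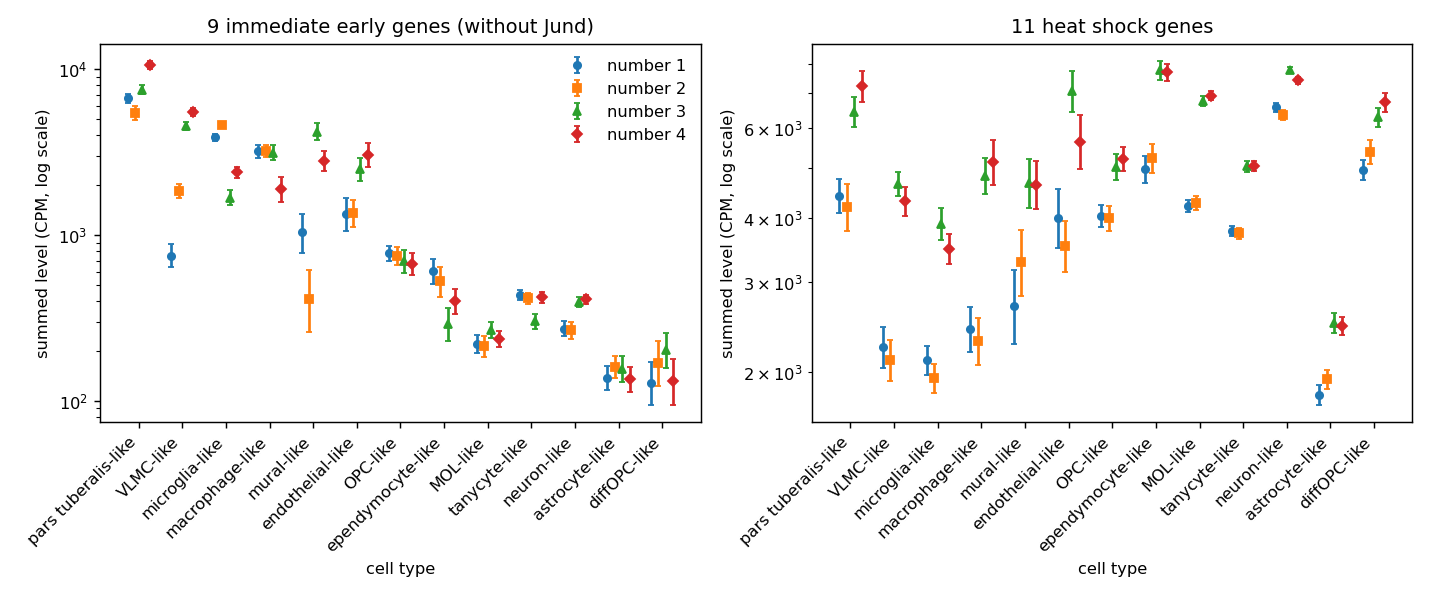
Summed level (CPM, log scale) by barcode number in 13 cell types, with 95% Poisson intervals, for the 9 immediate early genes without Jund and for 11 heat shock genes. Heat shock genes are higher in numbers 3 and 4 in every type, whereas the immediate early genes are higher in 3 and 4 in VLMC-like cells (4525 and 5539 CPM) and lower in microglia-like cells (1681 and 2387 CPM).

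Over the 13 cell types, the genes outside the inducible lists whose log level was most like the sum of the 10 genes were Nop53 (r = 0.84), Cited2 (0.83), Phip (0.82), H3f3b (0.80), Nucb1 (0.79), Chrac1 (0.78), Rps27 (0.78), Use1 (0.77), Nek7 (0.77) and Rps27rt (0.77). Each member set against the sum of the other 9 ranged from 0.92 for Fos and Ier2 to 0.45 for Jund and 0.39 for Nr4a1. With 13 points from the same libraries these values only describe. Over single cells of the 4 types with most cells, no gene had a mean r above 0.16, which is weak in sparse counts. In PT-like, VLMC-like, microglia-like and macrophage-like cells, a choice of types made after seeing the levels, the genes that varied most with the 9 members without Jund were Btg2 (mean r = 0.67), Klf2 (0.44), Ier5 (0.43), Klf6 (0.36) and Rhob (0.31), all from the inducible lists.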

How the data were processed

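Mapping to GRCm38 (mm10) and UMI counting were done by the authors in Cell Ranger 2.0. Raw counts per gene and barcode were deposited. The annotation release and cell calling rule are not given in the sources used here. Ensembl IDs (27722 of 27998) were matched to GENCODE symbols. The 10 genes, the gene lists and the markers were chosen with earlier results of these data known.

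Correlations over single cells used logs of counts scaled to 10000 UMIs per cell. For clustering, each cell was instead brought to the median depth of the cells before logs were taken. From them, the 2000 most variable genes, chosen after 73 members and other inducible genes were left out, gave 30 principal components, 15 neighbours and Leiden clusters at resolution 1 (scanpy 1.11.5, anndata 0.12.19, igraph 0.11.9, scikit-learn 1.9.0, numpy 2.4.6, scipy 1.17.1, seed 0). A cluster was named from 13 marker lists when its score was at least 0.3 and 1.5 times the next and 3 markers were 4-fold above the median cluster. Scrublet called 50 doublets (0.836%), which were kept. Genes named beyond the members were those of highest level in each list or most like the members, and others (Klf4, Egr2, Egr4, Arc, Btg2, Map2k1) after their values were seen. Cebpd is not analysed here. There was 1 sample, so differences have no replicate check and no p-value is given. Steps were tested on simulated data.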

Additional observations from a re-analysis of the deposited data

How the results depend on the processing

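Of 111 alternative values, 74 stayed within the error of the reported value or within 1.5 times a count, and 37 moved. Reversal was not scored. Within VLMC-like or microglia-like cells, leaving out a number that was neither highest nor lowest could not change the ratio, and such values count among the 74. PT-like cells remained the highest type except under K-means, whose 9 clusters on 10 components held no cluster named PT-like, so that VLMC-like cells led with 4276 CPM. K-means also gave a highest-to-lowest ratio of 12.9 between types, 2 members at least 4-fold above the median type (13% of genes), 6 members at least 1.5-fold between numbers (5.27% of genes), a ratio of 2.01 between numbers and a median of 1 gene per cell.

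The level of 8279 CPM in PT-like cells became 9300 CPM with the inducible genes kept for clustering, 10303 at resolution 2, 8648 without doublets, 8881 with at most 20% mitochondrial UMIs, 7000 at 1000 UMIs per cell, 7054 as the mean of cells and 9029 over the remaining UMIs. Leaving out each barcode number gave 7327 to 8761 CPM. The ratio between types became 36.2 at resolution 2. The median of 2 genes per PT-like cell became 4 with the inducible genes kept and 5 at resolution 2, and 1 to 2 without each number. At resolution 2 the Cga-led cells alone kept the PT-like name, and the Pomc-led cells, unnamed there, were at 5741 CPM.

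Of the members, 1 passed 1.5-fold between numbers (Fos, except Dusp1 at 1000 UMIs) with the inducible genes kept, at resolution 0.5, at 1000 UMIs (7.46% of genes), over the remaining UMIs, with a pseudocount of 1 CPM (2.53% of genes) and without the shared barcodes, and 0 to 1 without each number. The ratio between numbers was 1.08 pooled over types (5.31% of genes at 1.5-fold) and 1.07 to 1.18 without each number. In alternatives added after seeing the data, the ratio was 2.57 to 4.48 in VLMC-like cells and 1.82 to 2.51 in microglia-like cells without each number, and 3.50 in microglia-like cells without the top cell of each number. Where no cause is given, the cause was not tested. No paired analysis was possible because the cell barcodes carry no replicate number of the labels. Depth limits Fosb, Atf3 and Nr4a1 most.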
